A study of Homo sapiens with 27 samples.

Results

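The genes described here carry out antigen presentation by major histocompatibility complex (MHC) class I molecules. They were chosen by symbol and are 9: HLA-B, HLA-C, HLA-E, B2M, TAP1, TAP2, TAPBP, ERAP1 and NLRC5. They were matched through their Ensembl gene IDs among 60534 genes listed in every library, 19307 of them protein coding. All 9 passed the filter on low counts in RNA-seq, in ribosome profiling (Ribo-seq) and in the ratio of the 2. The cells were IMR90, a line of human fetal lung fibroblasts, labelled wild type except in the thapsigargin libraries, whose labels give no genotype. Cycling cells were harvested below confluence, and quiescent cells were held by contact inhibition. One group was made senescent by 15 Gy of ionizing radiation and kept for 10 days. Another was made senescent by etoposide, a topoisomerase II poison, at 50 µM in 3 treatments over 10 days. The last group was cycling cells given thapsigargin, a blocker of the pump that fills the endoplasmic reticulum with calcium, at 25 nM for 3 h. The labels give the thapsigargin cells a medium without the antibiotics named for the other groups. Each state had 3 libraries of each type, but cycling RNA-seq had 2 and thapsigargin had 2 of both. The labels do not say that libraries of a state came from separate cultures, so p-values measure only the spread between these libraries, which may be technical.

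Nucleated cells show fragments of their own proteins on MHC class I molecules, where cytotoxic T cells can read them. The fragments are cut by the proteasome, carried into the endoplasmic reticulum by the transporter made of TAP1 and TAP2, and trimmed there by the aminopeptidase ERAP1. Tapasin (TAPBP) joins the transporter to an empty class I molecule and helps to load it. The class I molecule is a heavy chain (HLA-B and HLA-C among the classical ones, HLA-E a non-classical one that natural killer cells read through inhibitory receptors) bound to the invariant light chain beta-2-microglobulin (B2M). NLRC5 is a transactivator that binds class I promoters together with the RFX factors. Interferons and NF-kappaB are known inducers of the pathway, and fibroblasts express it at a moderate level without them.

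Promoters of 5 of the genes are shown because they carry the elements that the interferon and NF-kappaB routes are known to use, and because HLA-B and HLA-C, whose values parted under thapsigargin, can be compared there. Each run holds the 250 bases before the start site in RefSeq on GRCh38.p14, 5′ to 3′ on the strand of the gene, and is reference sequence, not that of IMR90 cells. Capitals mark matches on either strand to 3 patterns. The first is GAAA, any 2 bases and GAAA, the core of an interferon-stimulated response element (ISRE). The second, GAANNGAAA, is a variant with 1 base fewer. The third is GGG, any 2 bases, TT, any base and CC, a kappaB site, and matches that overlap run together. The windows are chr6:31357180-31357429 for HLA-B, chr6:31272093-31272342 for HLA-C, chr6:32853705-32853954 for TAP1 and chr6:33314079-33314328 for TAPBP, all on the minus strand, and chr15:44711267-44711516 on the plus strand for B2M.
HLA-B: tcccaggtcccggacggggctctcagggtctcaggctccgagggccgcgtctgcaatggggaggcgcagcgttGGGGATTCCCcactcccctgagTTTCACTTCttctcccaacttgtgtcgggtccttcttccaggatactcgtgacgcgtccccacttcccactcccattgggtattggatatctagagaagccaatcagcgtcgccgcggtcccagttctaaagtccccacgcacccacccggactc
HLA-C: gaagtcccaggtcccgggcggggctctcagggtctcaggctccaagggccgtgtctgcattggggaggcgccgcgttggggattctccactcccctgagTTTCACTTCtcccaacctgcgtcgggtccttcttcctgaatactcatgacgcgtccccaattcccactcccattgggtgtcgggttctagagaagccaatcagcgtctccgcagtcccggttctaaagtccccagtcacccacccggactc
B2M: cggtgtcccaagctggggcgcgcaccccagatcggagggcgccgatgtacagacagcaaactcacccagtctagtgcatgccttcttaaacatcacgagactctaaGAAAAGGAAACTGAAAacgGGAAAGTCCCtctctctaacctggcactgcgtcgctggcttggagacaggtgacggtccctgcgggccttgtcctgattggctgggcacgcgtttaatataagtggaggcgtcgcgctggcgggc
TAP1: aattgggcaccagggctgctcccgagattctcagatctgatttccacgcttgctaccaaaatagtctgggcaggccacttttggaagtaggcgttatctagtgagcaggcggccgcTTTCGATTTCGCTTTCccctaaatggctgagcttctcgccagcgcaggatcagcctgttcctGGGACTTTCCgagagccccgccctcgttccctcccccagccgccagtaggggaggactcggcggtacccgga
TAPBP: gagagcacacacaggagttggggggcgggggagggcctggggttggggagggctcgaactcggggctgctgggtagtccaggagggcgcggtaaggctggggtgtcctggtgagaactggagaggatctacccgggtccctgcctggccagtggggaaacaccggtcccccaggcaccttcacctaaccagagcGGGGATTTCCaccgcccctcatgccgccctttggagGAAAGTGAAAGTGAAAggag
Windows were given for 7 of the 9 genes, without HLA-E and NLRC5. These 7 had 9 windows, as TAP1 and ERAP1 had 2 each, and a match in either was counted for the gene. ERAP1 had the kappaB letters in window 1 and GAANNGAAA in window 2. The RefSeq shares below are of single windows, so genes with 2 windows had more room for a match. The ISRE core was found in a window of 4 of the 7 (B2M, TAP1, TAP2 and TAPBP), against 3.02% of 35116 RefSeq windows of the same length. GAANNGAAA was found in 4 (HLA-B, HLA-C, TAP2 and ERAP1), against 6.56% of windows, and in TAP2 it overlapped the ISRE core. The kappaB letters were found in 5 (HLA-B, B2M, TAP1, TAPBP and ERAP1), against 5.07% of windows. HLA-B has GGGGATTCCC in its window, and these letters have no match in the HLA-C window. A CCAAT box, on either strand, was found in 5 of the 7, against 32% of windows, and TGACGC, the core of an X2 box, in HLA-B, HLA-C and TAP2, against 7.67% of windows. These matches describe letters in a window and do not show that a factor bound there.

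Library sizes ranged from 20635503 to 57119841 counts in genes for RNA-seq and from 1936976 to 19996104 for Ribo-seq. The thapsigargin libraries stood apart: 1.35% to 1.40% of their RNA-seq reads were unmapped, against 27.9% to 40.6% in the other RNA-seq libraries. In their Ribo-seq libraries up to 66.9% of reads mapped to several places, against at most 31.9% elsewhere, and those files follow a longer gene list than the other 12 Ribo-seq files. Treatment and these differences cannot be told apart, and results on thapsigargin are given with that limit. In RNA-seq all 12 fibroblast markers were detected in every state, with a summed level of 9413 to 15200 CPM per library, which are counts scaled to a common library size. The 7 immune markers summed to at most 1.78 CPM. Epithelial markers (5 genes) summed to 89.7 to 97.1 CPM under thapsigargin against 2.52 to 22.5 elsewhere, with 2 of the 5 at 0 in both libraries, and endothelial markers (4 genes, none at 0) to 57.1 to 89.9 CPM after etoposide against 4.54 to 37.1 elsewhere. The part of these other markers in the results was not tested. In all that follows, levels are CPM after TMM scaling, changes are log2 fold changes ± SE from edgeR, and a gene was called at a Benjamini-Hochberg adjusted p under 0.05 over all genes tested. Levels are compared between states within a gene and not between genes. Where groups are said not to overlap, the share of all genes without overlap is not given here.

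After irradiation, 8 of the 9 genes fell in mRNA and in ribosome footprints, and the exception in both was HLA-E. The heavy chains HLA-B and HLA-C, the light chain B2M, both transporter chains, tapasin, ERAP1 and NLRC5 had log2 changes of -0.78 to -1.44 in RNA-seq. Over all genes, in RNA-seq 34.9% of 13291 genes were called in either direction and 18.8% were lower. In Ribo-seq 39.8% of 11764 genes were called and 22.6% were lower. The median change of the 9 genes was -1.08 in RNA-seq and -1.24 in Ribo-seq, beside 0.03 and -0.01 over all genes. In these bulk samples fewer cells with a transcript and less of it per cell cannot be told apart.

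HLA-B mRNA was at 49.9 and 51.4 CPM in cycling libraries and at 21.6, 29.9 and 20.4 CPM in irradiated ones. All 3 irradiated libraries lay below both cycling libraries, and the change was -1.08 ± 0.22 (adjusted p = 0.00182). HLA-B footprints were at 123, 135 and 153 CPM in cycling libraries and at 58.8, 69.9 and 58.8 CPM after irradiation. Again the groups did not overlap, with a change of -1.14 ± 0.31 (adjusted p = 0.00965). HLA-C mRNA was at 11.8 and 13.1 CPM in cycling libraries and at 6.60, 7.62 and 3.46 CPM after irradiation, with the lowest value in replicate 3. Its change was -1.08 ± 0.27 (adjusted p = 0.00717), and its footprints changed by -1.12 ± 0.37 (adjusted p = 0.0261).

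B2M, which every class I molecule needs to reach the cell surface, was at 793 and 784 CPM in cycling RNA-seq and at 359, 412 and 329 CPM in irradiated RNA-seq. Every irradiated library lay below both cycling ones, and the change was -1.11 ± 0.25 (adjusted p = 0.00416). B2M footprints were at 1686, 1989 and 1982 CPM in cycling libraries and at 715, 701 and 545 CPM after irradiation, a change of -1.53 ± 0.23 (adjusted p = 0.000194). The footprint groups did not overlap either.

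TAP1, 1 of the 2 transporter chains, was at 41.1 and 44.8 CPM in cycling RNA-seq and at 18.1, 21.9 and 20.0 CPM in irradiated RNA-seq, a change of -1.10 ± 0.23 (adjusted p = 0.00198). Its footprints were at 27.3, 23.4 and 34.0 CPM and at 7.55, 9.44 and 12.0 CPM, a change of -1.56 ± 0.33 (adjusted p = 0.00192). No irradiated library reached a cycling one in either assay. TAP2 mRNA was at 8.76 and 8.98 CPM in cycling libraries and at 2.31, 3.56 and 3.97 CPM after irradiation (-1.44 ± 0.26, adjusted p = 0.000834). TAP2 footprints rested on few reads, 15, 24 and 21 counts in cycling libraries and 1, 3 and 0 counts in irradiated ones. Their fitted change was -2.36 ± 0.86 (adjusted p = 0.0412).

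Tapasin (TAPBP) mRNA was at 59.1 and 73.6 CPM in cycling libraries and at 39.5, 40.1 and 35.8 CPM after irradiation (-0.78 ± 0.20, adjusted p = 0.0075), and its footprints changed by -1.21 ± 0.27 (adjusted p = 0.00276). ERAP1 mRNA changed by -0.95 ± 0.23 (adjusted p = 0.00525) and its footprints by -1.26 ± 0.30 (adjusted p = 0.00444). For ERAP1 the strand opposite to the gene held 58.5% to 79% of the RNA-seq reads at the locus and 13.8% to 54.9% of the Ribo-seq reads, against at most 8.57% at any other of the 9 genes. Only the gene's own strand was counted. NLRC5 mRNA was at 16.8 and 19.8 CPM in cycling libraries and at 10.96, 10.01 and 11.004 CPM after irradiation (-0.78 ± 0.15, adjusted p = 0.00113). NLRC5 footprints were at 18.2, 15.4 and 15.3 CPM and at 7.20, 7.18 and 6.28 CPM (-1.24 ± 0.18, adjusted p = 0.000143), with no overlap.

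HLA-E mRNA was at 120 and 124 CPM in cycling libraries and at 134, 150 and 116 CPM after irradiation, so the groups overlapped (0.13 ± 0.12, adjusted p = 0.442). Its footprints were at 96.7, 94.2 and 116 CPM and at 76.4, 88.4 and 84.2 CPM (-0.31 ± 0.18, adjusted p = 0.187). The footprint groups did not overlap, and a fit of the 2 states alone called HLA-E lower (-0.27, adjusted p = 0.0447). Without cycling RNA-seq replicate 2, the RNA-seq count after irradiation was 5 of 9: HLA-C (adjusted p = 0.0527), TAPBP (0.0922) and ERAP1 (0.0612) missed the threshold. Leaving out 1 Ribo-seq library at a time gave 6 or 7 of 9. HLA-C was then not called in 5 of the 6 fits (adjusted p = 0.0528 to 0.104), all but that without cycling replicate 1. TAP2 was not called in 5 (0.0582 to 0.195), all but that without irradiated replicate 2.

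**Figure D1:**
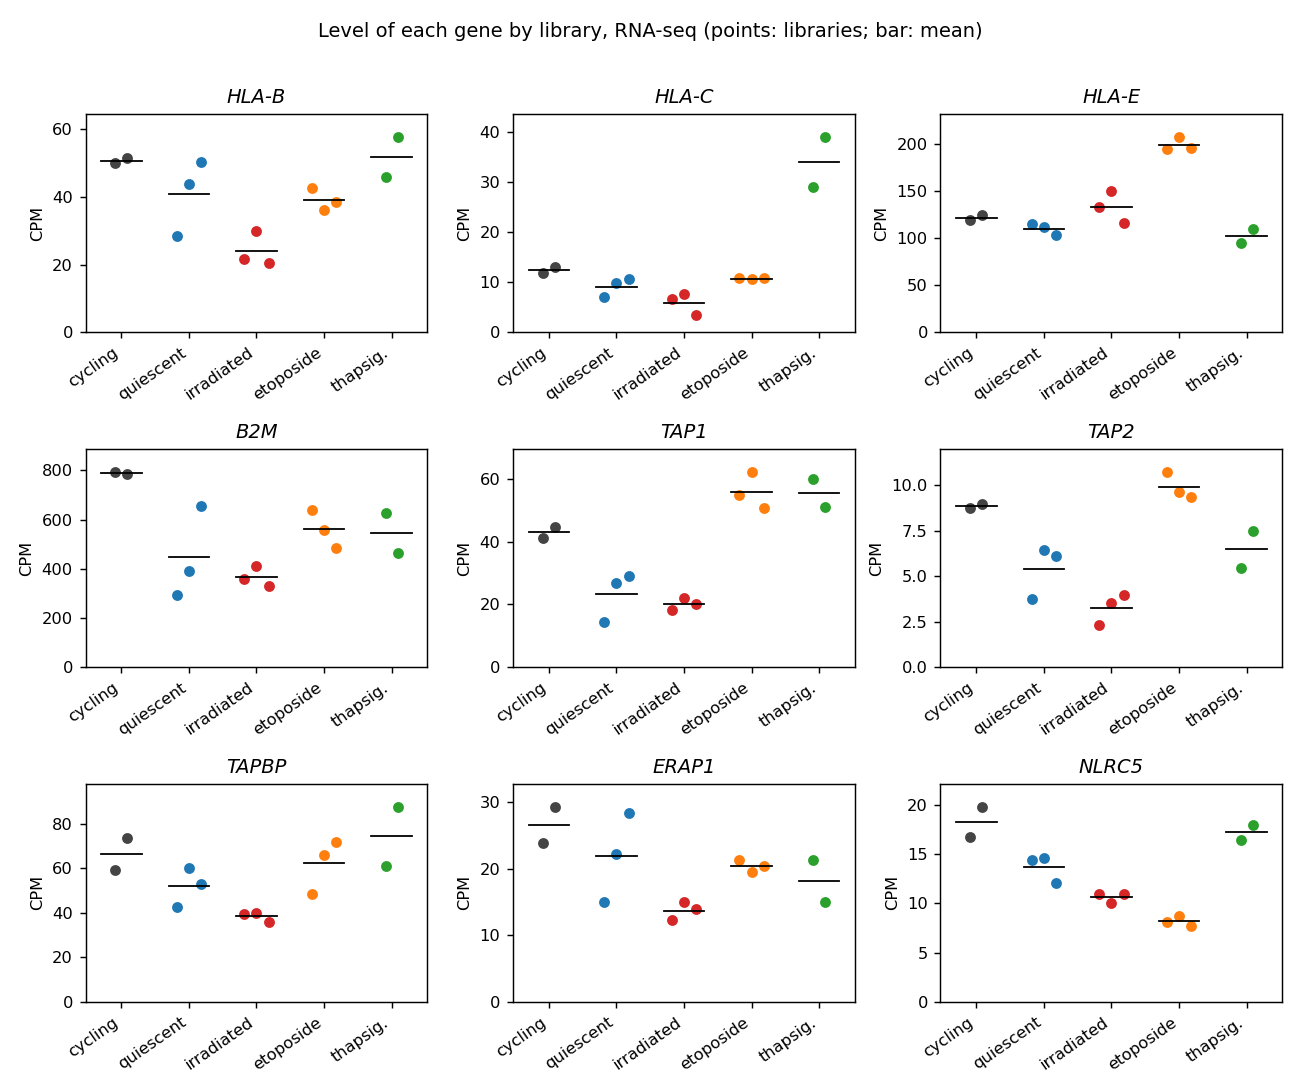
RNA-seq level (y axis, CPM after TMM scaling, from 0) of each of the 9 genes in every library, by state (x axis). Points are libraries and bars are means. The irradiated points are below both cycling points in every panel but that of HLA-E. The share of all genes that separate in this way is not given here. In this comparison 34.9% of 13291 genes were called and 18.8% were lower. HLA-C is high in both thapsigargin libraries (29.1 and 38.9 CPM).

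**Figure D2:**
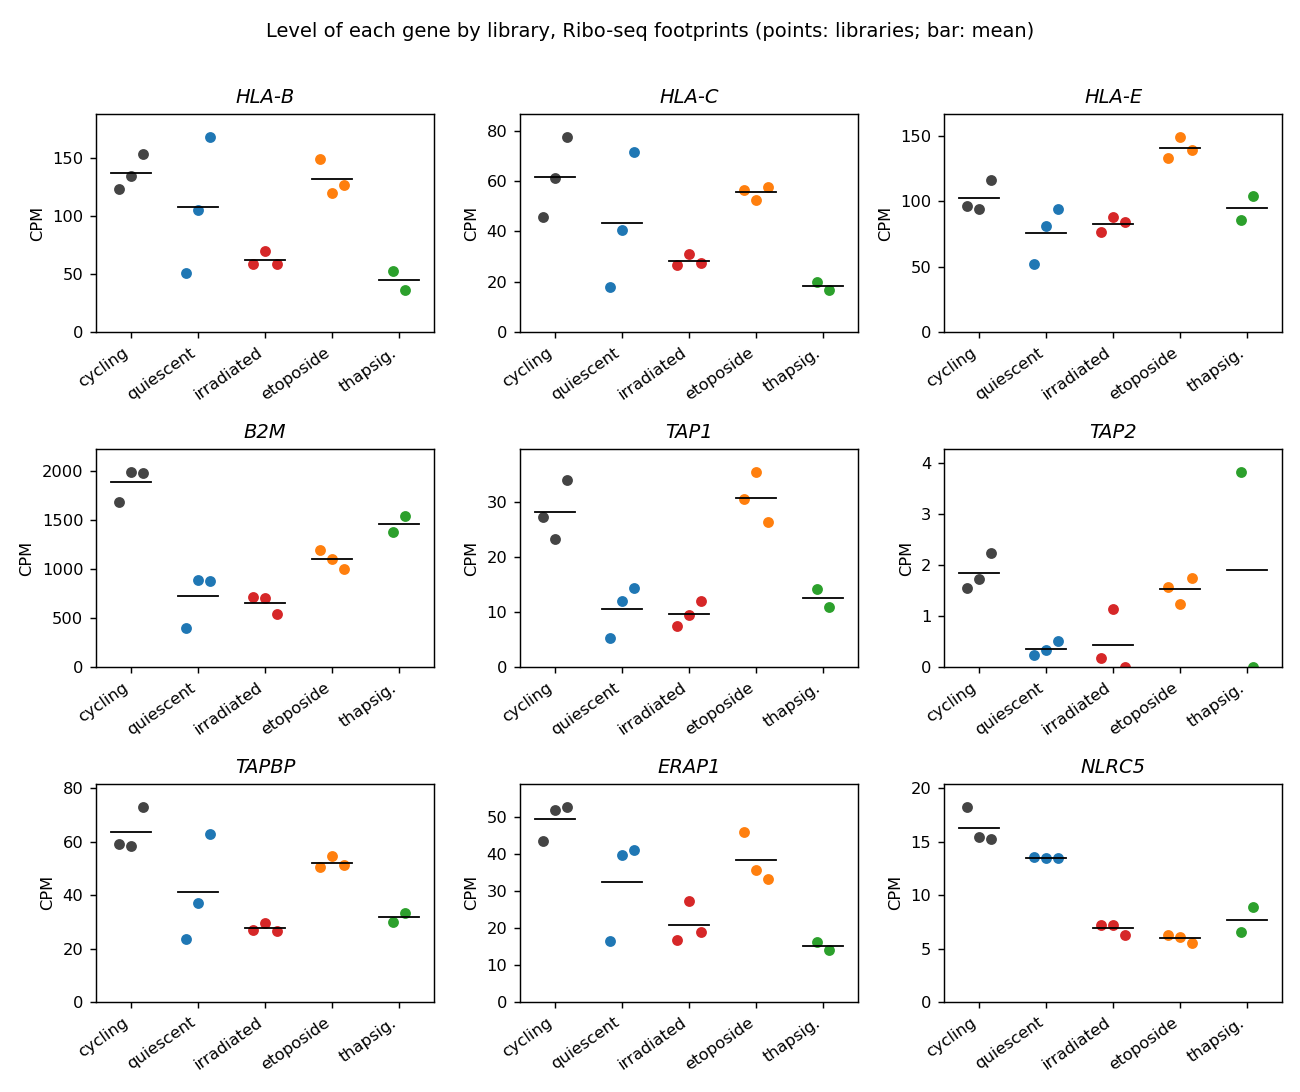
Ribo-seq level (y axis, CPM after TMM scaling, from 0) of each of the 9 genes in every library, by state (x axis). Points are libraries and bars are means; the lowest quiescent library is replicate 1 in every panel but that of NLRC5, and TAP2 rests on 0 to 24 counts per library.

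After etoposide, the pathway did not fall as a group. HLA-E rose in mRNA, NLRC5 fell in mRNA and footprints, and B2M fell in footprints. That is 2 of 9 genes called in RNA-seq, where 34.5% of all genes were called, 16.8% higher and 17.8% lower. It is 2 of 9 in Ribo-seq, where 34% were called and 17.6% were lower. HLA-E mRNA was at 195, 208 and 196 CPM after etoposide, above both cycling libraries (0.71 ± 0.12, adjusted p = 0.000578). Its footprints were at 133, 149 and 140 CPM, also above all 3 cycling libraries, with a change of 0.46 ± 0.17 that missed the threshold (adjusted p = 0.0543). It passed with DESeq2 (adjusted p = 0.0304) and without cycling Ribo-seq replicate 3 (0.0417).

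NLRC5 mRNA was at 8.07, 8.76 and 7.74 CPM after etoposide (-1.16 ± 0.15, adjusted p = 4.57e-05) and its footprints at 6.31, 6.07 and 5.55 CPM (-1.45 ± 0.18, adjusted p = 2.76e-05). Every etoposide library was below every cycling library in both assays, and below every irradiated library in RNA-seq. B2M footprints were at 1200, 1104 and 1006 CPM, below all cycling libraries (-0.77 ± 0.23, adjusted p = 0.0182). The B2M call was lost without cycling replicate 2, cycling replicate 3 or etoposide replicate 3 (adjusted p = 0.0519 to 0.0693). B2M mRNA was at 641, 557 and 485 CPM (-0.49 ± 0.26, adjusted p = 0.152). The transporter and loading genes had values on both sides of 0 in RNA-seq: TAP1 0.38 ± 0.23, TAP2 0.16 ± 0.25 and TAPBP -0.09 ± 0.20, none of them called. HLA-B (-0.38 ± 0.22) and HLA-C (-0.22 ± 0.27) mRNA were not called either. In a fit of etoposide and cycling libraries alone the counts were 6 of 9 in RNA-seq and 5 of 9 in Ribo-seq. The RNA-seq calls added were HLA-B, B2M and ERAP1, which were lower, and TAP1, which was higher. That fit also called more of all genes. In RNA-seq it called 6073 of 13060, beside 4591 of 13291 in the fit of all states. In Ribo-seq it called 6021 of 11505, beside 4000 of 11764.

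**Figure D3:**
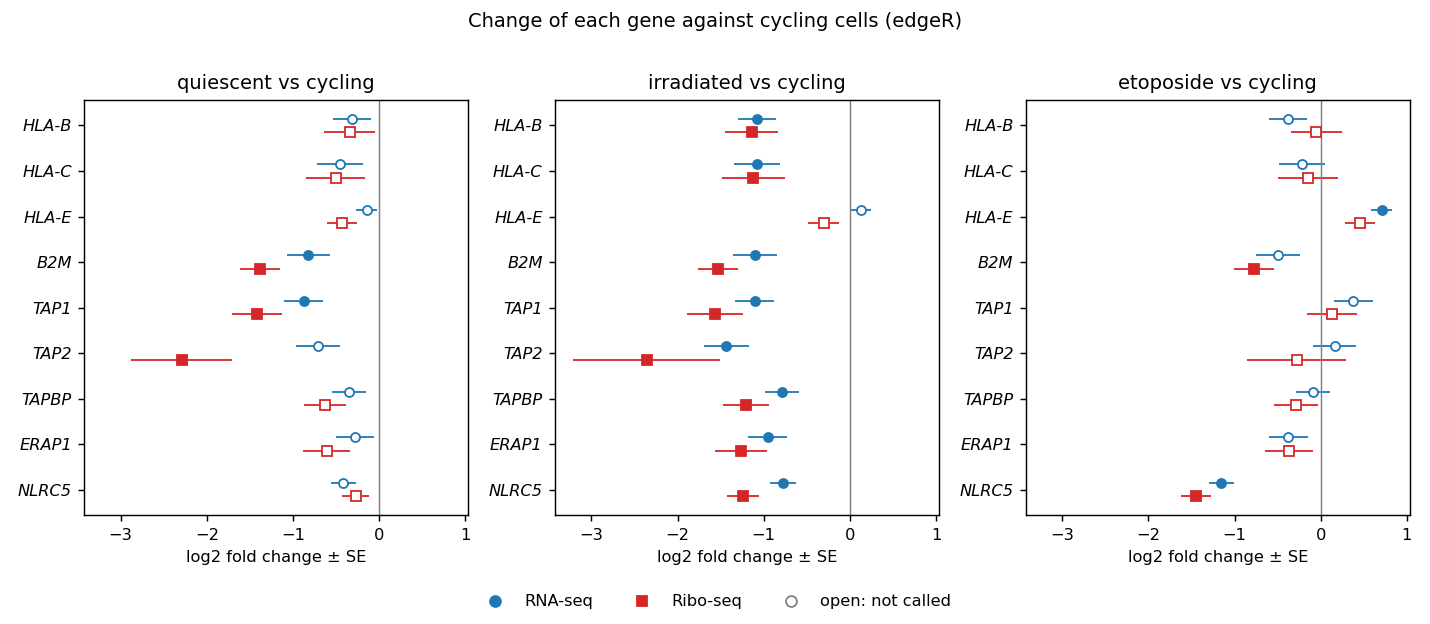
Log2 fold change ± SE (x axis) of each gene (y axis) in quiescent, irradiated and etoposide-treated cells against cycling cells, for RNA-seq (circles) and Ribo-seq (squares). Filled symbols passed an adjusted p under 0.05; 8 of 9 genes are filled and below 0 in both assays after irradiation.

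The 2 senescent states were compared directly, since a change called in one and not in the other does not show a difference. In RNA-seq 6 of the 9 genes were lower in irradiated than in etoposide-treated cells: HLA-B, HLA-C, HLA-E, TAP1, TAP2 and TAPBP. Over all genes 22.6% were called in either direction and 12.9% were lower. In Ribo-seq 5 of 9 were lower, HLA-B, HLA-E, B2M, TAP1 and TAPBP, beside 21.7% of all genes called and 13.9% lower. The transporter chains differed most. TAP1 mRNA was at 54.9, 62.2 and 50.6 CPM after etoposide, so the difference to irradiated libraries was -1.48 ± 0.21 (adjusted p = 0.000386). TAP2 mRNA was at 10.7, 9.65 and 9.39 CPM, a difference of -1.60 ± 0.24 (adjusted p = 0.000515). The groups did not overlap for either gene.

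TAP1 footprints were at 30.7, 35.5 and 26.4 CPM after etoposide, a difference of -1.70 ± 0.33 (adjusted p = 0.00291), again without overlap. TAP2 footprints, on 9, 8 and 10 counts after etoposide, did not pass (adjusted p = 0.13). The HLA-E difference was -0.58 ± 0.11 in mRNA (adjusted p = 0.0019) and -0.76 ± 0.18 in footprints (adjusted p = 0.00775). HLA-B mRNA was at 42.5, 36.1 and 38.4 CPM after etoposide (-0.70 ± 0.20, adjusted p = 0.0215). Its footprints were at 150, 120 and 127 CPM (-1.09 ± 0.31, adjusted p = 0.0228). HLA-C mRNA differed by -0.86 ± 0.25 (adjusted p = 0.0219), and its footprints by -0.97 ± 0.37, which missed the threshold (adjusted p = 0.0792). TAPBP differed by -0.69 ± 0.18 in RNA-seq (adjusted p = 0.0137) and -0.92 ± 0.27 in Ribo-seq (adjusted p = 0.0258).

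For B2M it was -0.61 ± 0.23 in mRNA, not called (adjusted p = 0.0737), and -0.75 ± 0.23 in footprints (adjusted p = 0.0311). NLRC5 had a value in the other direction, 0.38 ± 0.13 in RNA-seq (adjusted p = 0.0582) and 0.21 ± 0.20 in Ribo-seq, and was called in neither. In RNA-seq fits that left out 1 library, 3 to 6 genes were called. HLA-E, TAP1 and TAP2 were called in each of the 6 fits. HLA-B was lost without irradiated replicates 1 or 3 or etoposide replicate 1 (adjusted p = 0.0692 to 0.0992), HLA-C without irradiated replicate 3 or any etoposide library (0.051 to 0.0708), and TAPBP without irradiated replicate 3 or etoposide replicates 2 or 3 (0.0557 to 0.061). In Ribo-seq such fits gave 2 to 4 genes. TAPBP was lost without any 1 of the 6 libraries (0.0519 to 0.0908), B2M without any irradiated library or etoposide replicate 1 (0.0633 to 0.125), and HLA-B without irradiated replicates 1 or 3 or etoposide replicate 1 (0.0744 to 0.0867). HLA-E and TAP1 footprints were called in each of the 6, and ERAP1 footprints were gained without irradiated replicate 2 (0.0454).

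In quiescent cells B2M and the transporter chain TAP1 were lower than in cycling cells in both assays, and the libraries spread widely. B2M and TAP1 fell in RNA-seq, 2 of 9 genes beside 15.6% of all genes called and 10.4% lower. B2M, TAP1 and TAP2 fell in Ribo-seq, 3 of 9 beside 21.7% called and 14.6% lower. B2M mRNA was at 293, 393 and 655 CPM in the quiescent libraries, all below both cycling libraries (-0.82 ± 0.25, adjusted p = 0.0436). Its footprints were at 396, 894 and 881 CPM (-1.38 ± 0.23, adjusted p = 0.00132). TAP1 mRNA was at 14.4, 26.8 and 29.2 CPM (-0.87 ± 0.23, adjusted p = 0.0186) and its footprints at 5.40, 12.0 and 14.3 CPM (-1.41 ± 0.29, adjusted p = 0.00397). No quiescent library of these 2 genes reached a cycling one. In Ribo-seq the replicate numbers paired quiescent with cycling libraries, and with the number as a block 5 of 9 genes were lower. The genes added were HLA-E (-0.46, adjusted p = 0.0345) and TAPBP (-0.68, adjusted p = 0.045). The share of all genes called with the block is not given here.

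Quiescent TAP2 footprints were 5, 6 and 10 counts, from the largest Ribo-seq libraries of the series (-2.29 ± 0.58, adjusted p = 0.0132). TAP2 mRNA was not called (-0.71 ± 0.26, adjusted p = 0.0793). HLA-B footprints were at 51.0, 106 and 168 CPM, the highest of them above all cycling libraries, so no shift between the groups could be told from their spread (-0.34 ± 0.29, adjusted p = 0.469). The quiescent B2M mRNA call was lost without either cycling library or quiescent replicates 1 or 2 (adjusted p = 0.104 to 0.19), and that of TAP1 without either cycling library (0.0844 and 0.115). In a fit of the 2 states alone, neither was called (0.125 and 0.0902). The TAP2 footprint call was lost without cycling replicate 3 (0.0559). Without quiescent Ribo-seq replicate 3, 7 of 9 genes were lower in footprints. HLA-B, HLA-C, HLA-E and TAPBP were added (adjusted p = 0.00128 to 0.0272). The share of all genes called in that fit is not given here, so the 7 of 9 cannot be set against it.

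Irradiated cells were also compared with quiescent cells, both of them non-dividing. HLA-B (-0.77 ± 0.20, adjusted p = 0.0174) and ERAP1 (-0.67 ± 0.21, adjusted p = 0.0374) were lower in irradiated RNA-seq, 2 of 9 beside 18.7% of all genes called and 9.71% lower. NLRC5 was lower in irradiated Ribo-seq (-0.97 ± 0.18, adjusted p = 0.00272), 1 of 9 beside 14.5% called and 7.62% lower. At an unadjusted p under 0.05 the counts were 7 of 9 in RNA-seq and 4 of 9 in Ribo-seq. The share of all genes at that looser threshold is not given here, so these 2 counts cannot be set against it. With 1 library left out, the counts of called genes ran from 0 to 5 in RNA-seq and from 1 to 6 in Ribo-seq. Shares of all genes called in those fits are not given here either. The highest counts came without quiescent replicate 1 of each library type: HLA-C, TAP1 and TAP2 were then also lower in RNA-seq (adjusted p = 0.0111 to 0.0466), and HLA-B, HLA-C, B2M, TAPBP and ERAP1 in Ribo-seq (0.000332 to 0.018). HLA-B mRNA was not called without quiescent replicates 2 or 3 or irradiated replicates 1 or 3 (0.056 to 0.08), and ERAP1 mRNA without quiescent replicates 2 or 3 or any irradiated library (0.0696 to 0.139). NLRC5 mRNA was called as lower without quiescent replicate 3 (0.0357).

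Etoposide-treated against quiescent cells gave 4 of 9 genes in each assay, beside 41.7% of all genes in RNA-seq (21.1% higher, 20.6% lower) and 35.3% in Ribo-seq (19.2% higher, 16.1% lower). HLA-E, TAP1 and TAP2 were higher and NLRC5 lower after etoposide in both. The TAP1 difference was 1.25 ± 0.21 in mRNA (adjusted p = 0.00034) and 1.55 ± 0.30 in footprints (adjusted p = 0.00125). That of TAP2 was 0.87 ± 0.23 in mRNA (adjusted p = 0.00802) and 2.02 ± 0.65 in footprints (adjusted p = 0.0264). The HLA-E difference was 0.85 ± 0.11 in mRNA (adjusted p = 4.6e-05) and 0.89 ± 0.17 in footprints (adjusted p = 0.00137), and that of NLRC5 -0.74 ± 0.13 (adjusted p = 0.000672) and -1.17 ± 0.18 (adjusted p = 0.000205). TAP2 footprints were lost without quiescent replicates 1 or 2 or etoposide replicates 1 or 3 (adjusted p = 0.0592 to 0.0843). Without quiescent Ribo-seq replicate 3, 8 of 9 footprint differences were called. HLA-B, HLA-C, B2M and TAPBP were added as higher after etoposide (0.00404 to 0.0242). How many of all genes that fit called is not given here, so the 8 of 9 cannot be set against it. B2M footprints were also called as higher without quiescent replicate 2 (0.0308), and B2M mRNA without quiescent RNA-seq replicate 3 (0.00624).

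The ratio of footprints to mRNA of the 9 genes did not change past the threshold outside thapsigargin. None of the 9 was called by edgeR in quiescent, irradiated or etoposide-treated cells against cycling cells, or between the 2 senescent states. Over all 11713 genes tested, 0.00854%, 0.0512%, 0.0683% and 0% were called in these comparisons. At an unadjusted p under 0.05 the counts were 1, 0, 0 and 0 of 9. The 1 was TAP2 in quiescent cells, whose ratio changed by -1.49 ± 0.59. The share of all genes at that threshold is not given here. DESeq2 called 0 of 9 in each. SEs of the other ratios ran from 0.20 to 0.91. Small changes were not detectable, and the larger one of TAP2 in quiescent cells (-1.49) was not called either. For B2M the ratio of mean levels in the joint scaling was 2.43 in cycling cells, 1.76 in quiescence, 1.97 after irradiation and 1.94 after etoposide. For HLA-B it was 2.75, 2.87, 2.87 and 3.34 in the same order.

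Under thapsigargin, footprints of 6 of the 9 genes were lower than in untreated cycling cells: HLA-B, HLA-C, TAP1, TAPBP, ERAP1 and NLRC5. Over all genes 44.4% were called in either direction and 24.4% were lower, and the median change of all genes was -0.11. In RNA-seq 1 of 9 was called, HLA-C, which was higher, beside 24.5% of all genes called and 11.7% higher. HLA-B footprints were at 52.8 and 36.5 CPM under thapsigargin, from 97 and 70 counts, and below all cycling libraries (-1.62 ± 0.39, adjusted p = 0.00437). HLA-C footprints were at 20.2 and 16.7 CPM, from 37 and 32 counts, against 45.8, 61.3 and 77.4 CPM in cycling libraries (-1.74 ± 0.48, adjusted p = 0.0102). Neither heavy chain overlapped between the groups.

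ERAP1 footprints changed by -1.70 ± 0.39 (adjusted p = 0.00352), TAP1 by -1.17 ± 0.40 (adjusted p = 0.0302), NLRC5 by -1.08 ± 0.23 (adjusted p = 0.00238) and TAPBP by -1.003 ± 0.32 (adjusted p = 0.0219). Footprints of B2M, at 1381 and 1544 CPM (-0.37 ± 0.26, adjusted p = 0.265), and of HLA-E, at 86.1 and 104 CPM (-0.10 ± 0.20, adjusted p = 0.707), did not pass. TAP2 had 7 and 0 counts in the 2 libraries and was not called. Leaving out thapsigargin Ribo-seq replicate 1 lost HLA-C, TAP1 and TAPBP (adjusted p = 0.059 to 0.125), leaving out replicate 2 lost those and HLA-B (0.0512 to 0.164), and leaving out cycling Ribo-seq replicate 3 lost TAP1 and TAPBP (0.0829 and 0.0632). The counts were then 3, 2 and 4 of 9.

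In the ratio of footprints to mRNA, 5 of 9 genes were lower under thapsigargin, beside 20.8% of all genes called and 12.9% lower, with a median of -0.15 over all genes. HLA-C changed by -3.22 ± 0.55 (adjusted p = 0.00029), HLA-B by -1.68 ± 0.44 (adjusted p = 0.00891), TAP1 by -1.57 ± 0.46 (adjusted p = 0.019), TAPBP by -1.19 ± 0.38 (adjusted p = 0.0285) and NLRC5 by -1.02 ± 0.28 (adjusted p = 0.0132). The HLA-B ratio was 2.75 in cycling and 0.861 in thapsigargin cells. B2M (0.14 ± 0.38) and HLA-E (0.12 ± 0.23) gave values near 0. ERAP1 (-1.18 ± 0.45) missed the threshold (adjusted p = 0.0643). It was called with the replicate block (0.0196), with counts on both strands (0.0026) and with all gene types (0.0467). NLRC5 was not called in a fit of the groups compared alone (adjusted p = 0.122). Fits without cycling RNA-seq replicate 1 called 2 of 9, losing TAP1, TAPBP and NLRC5 (adjusted p = 0.0584 to 0.108). Those without cycling Ribo-seq replicate 3 lost TAP1 and TAPBP (0.0568 and 0.0811), and those without thapsigargin Ribo-seq replicate 1 lost TAPBP and NLRC5 (0.0902 and 0.0572). TAP1 was also lost without thapsigargin RNA-seq replicate 1 (0.0541) or Ribo-seq replicate 2 (0.0585), and TAPBP without thapsigargin RNA-seq replicate 2 (0.138), where ERAP1 was gained (0.0499). HLA-B and HLA-C were called in each of these fits.

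**Figure D4:**
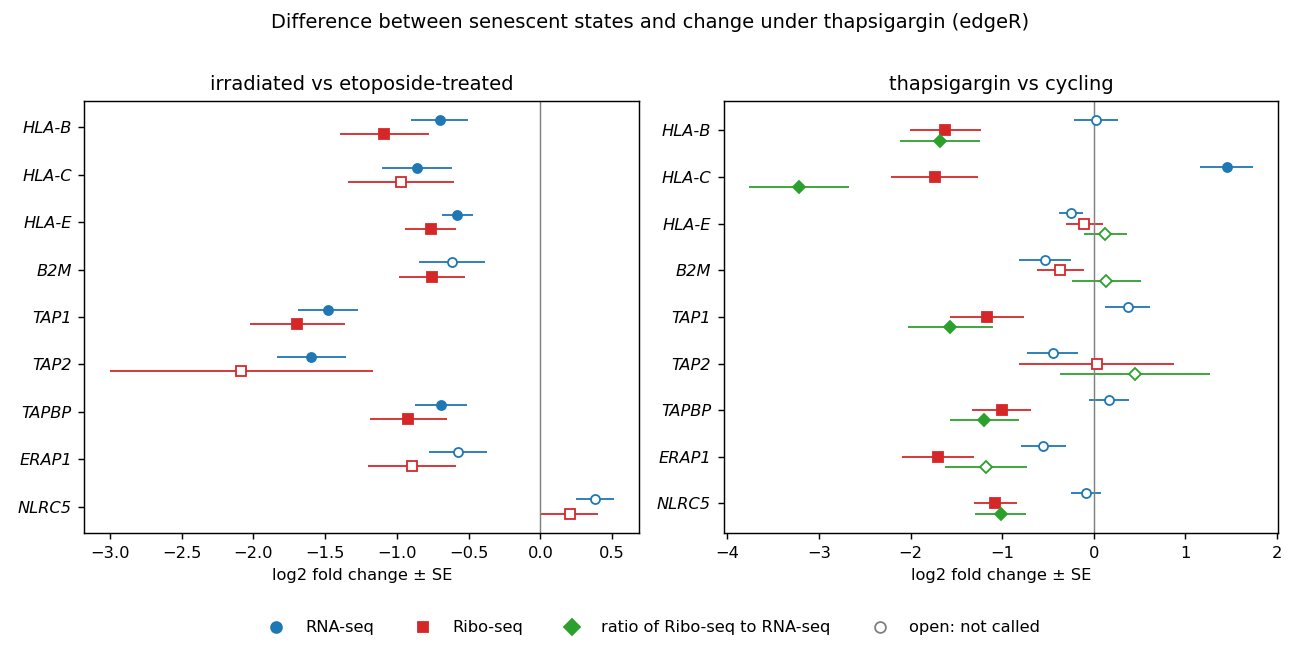
Log2 fold change ± SE (x axis) of each gene (y axis) in irradiated against etoposide-treated cells (left) and in thapsigargin-treated against untreated cycling cells (right), for RNA-seq (circles), Ribo-seq (squares) and, on the right, their ratio (diamonds). Filled symbols passed an adjusted p under 0.05; HLA-C under thapsigargin lies at 1.45 in RNA-seq and at -1.74 in Ribo-seq.

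The mRNA of HLA-C under thapsigargin parted from that of HLA-B, a close relative in sequence. HLA-C mRNA was at 29.1 and 38.9 CPM, above every other RNA-seq library of the series (1.45 ± 0.29 against cycling cells, adjusted p = 0.00309). HLA-B mRNA was at 45.7 and 57.6 CPM, around the cycling values (0.03 ± 0.24, adjusted p = 0.947). Within a library, the ratio of HLA-C to HLA-B counts does not depend on depth or scaling. It was 0.635 and 0.676 in the thapsigargin RNA-seq libraries and 0.170 to 0.305 in the other 11. In Ribo-seq it was 0.381 and 0.457 under thapsigargin, within the 0.354 to 0.505 of the other 12 libraries. With counts of both strands taken, the Ribo-seq ratio was 0.529 and 0.628 under thapsigargin and 0.388 to 0.544 elsewhere, so 1 of the 2 libraries then lay above the others. HLA-G, a non-classical heavy chain, had 168 counts in the 2 thapsigargin RNA-seq libraries and 0 to 1 count in each other state. In Ribo-seq it had 0 counts under thapsigargin and 106 in the 3 cycling libraries. The HLA-C ratio change of -3.22 rests on both this RNA-seq rise of HLA-C (1.45) and its footprint change (-1.74 ± 0.48). The part of the mapping differences named above, of the gene lists and of reads that match several HLA genes was not tested.

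**Figure D5:**
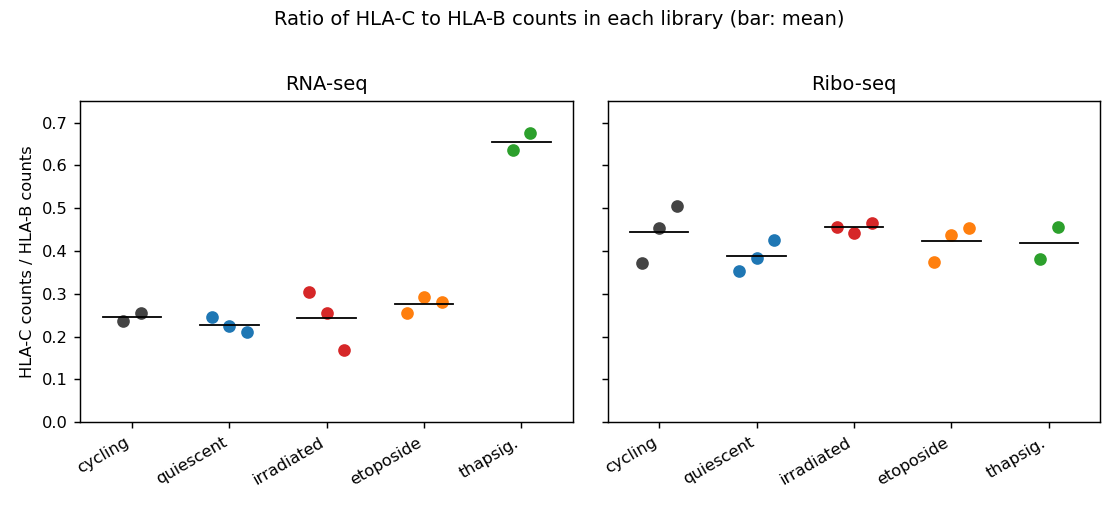
HLA-C counts divided by HLA-B counts (y axis, from 0) in each library, by state (x axis), for RNA-seq (left) and Ribo-seq (right). Points are libraries and bars are means; the 2 thapsigargin RNA-seq libraries lie at 0.635 and 0.676 and the other 11 at or below 0.305, while the Ribo-seq points of all states lie between 0.354 and 0.505.

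Other genes of the pathway were taken from lists by function. Of the 3 other class I heavy chains, 2 fell in Ribo-seq after irradiation, beside 39.8% of all genes called and 22.6% lower. HLA-G had 12 footprint counts there and was called lower (-1.64 ± 0.61, adjusted p = 0.0476). Its mRNA had almost no counts outside thapsigargin, as given above. The part in its footprints of reads that match several HLA genes was not tested. Under thapsigargin 1 of the 3 rose and 2 fell in Ribo-seq, beside 44.4% of all genes called and 24.4% lower. The 1 that rose was HLA-F (1.99 ± 0.61, adjusted p = 0.0173).

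The 4 loading chaperones assist folding and peptide loading in the endoplasmic reticulum. After irradiation 3 of 4 fell in each assay, beside 34.9% of all genes called in RNA-seq and 39.8% in Ribo-seq. Calreticulin (CALR) changed by -1.33 ± 0.24 in RNA-seq (adjusted p = 0.000724) and -1.80 ± 0.29 in Ribo-seq (adjusted p = 0.000298). The thiol oxidoreductase PDIA3, which binds tapasin, changed by -1.45 ± 0.25 (adjusted p = 0.000566) and -1.62 ± 0.27 (adjusted p = 0.000391). Calnexin (CANX) footprints changed by -1.38 ± 0.27 (adjusted p = 0.00119). In quiescent cells 3 of 4 were lower in each assay, beside 15.6% and 21.7% of all genes called. After etoposide 1 of 4 was called in RNA-seq, beside 34.5% of all genes: TAPBPL, a tapasin relative that edits peptides, which rose (1.11 ± 0.25, adjusted p = 0.00431). Between irradiated and etoposide-treated cells all 4 were lower in irradiated RNA-seq, led by CALR (-1.37 ± 0.22), TAPBPL (-1.14 ± 0.22) and PDIA3 (-1.12 ± 0.23), and 3 of 4 in Ribo-seq, beside 22.6% and 21.7% of all genes called. The median of the 4 in this comparison was -1.13 in RNA-seq and -1.45 in Ribo-seq, beside 0.06 and 0.04 over all genes. Under thapsigargin 3 of 4 fell in Ribo-seq, beside 44.4% of all genes called, PDIA3 by 1.68 on the log2 scale (SE 0.32, adjusted p = 0.00113), while TAPBPL had 3 counts in the 2 libraries. The median of the 4 under thapsigargin was -0.36 in RNA-seq and -1.30 in Ribo-seq, beside -0.03 and -0.11 over all genes.

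Of the 6 genes of the immunoproteasome and of peptide trimming, 1 rose and 1 fell in RNA-seq after irradiation, beside 34.9% of all genes called. The second was ERAP2, the partner aminopeptidase of ERAP1 (-1.38 ± 0.26, adjusted p = 0.00118). ERAP2 footprints fell as well (-2.06 ± 0.31, adjusted p = 0.000175). The proteasome subunits PSMB8 and PSMB9, whose genes lie beside TAP1, were not called in RNA-seq after irradiation. PSMB8 mRNA was at 33.6 ± 4.4 CPM (SD, n = 3) in irradiated and 37.2 ± 1.4 CPM (SD, n = 2) in cycling libraries. Under thapsigargin 3 of 6 fell in Ribo-seq, beside 44.4% of all genes called, PSMB9 by 2.01 (SE 0.51, adjusted p = 0.00625) and PSMB8 by 1.21 (SE 0.22, adjusted p = 0.000718) on the log2 scale.

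Of the 25 genes of interferon signalling and class I regulation, 23 were tested in RNA-seq and 20 in Ribo-seq. After irradiation 5 rose and 1 fell in RNA-seq, and 4 rose and 5 fell in Ribo-seq, beside 34.9% and 39.8% of all genes called. After etoposide 5 rose and 4 fell in RNA-seq, and 4 rose and 4 fell in Ribo-seq, beside 34.5% and 34%. IRF9, a subunit of the interferon-stimulated transcription complex, had 45 counts in 2 cycling RNA-seq libraries. It had 8 counts in 3 irradiated libraries and 3 counts in 3 etoposide libraries, and was called lower in both. IFNGR1, the ligand-binding chain of the interferon gamma receptor, was lower after irradiation than after etoposide, by -1.15 ± 0.24 in mRNA (adjusted p = 0.00385) and -1.67 ± 0.28 in footprints (adjusted p = 0.00144). Under thapsigargin 2 rose and 5 fell in RNA-seq, beside 24.5% of all genes called, with NFKB1, an NF-kappaB subunit, up by 1.74 ± 0.12 (adjusted p = 6.35e-07) and NFYB, a CCAAT-binding subunit, down (-1.09 ± 0.21, adjusted p = 0.00213). In Ribo-seq 3 rose and 7 fell, beside 44.4% of all genes called, among them NFYA, another CCAAT-binding subunit (-2.07 ± 0.28, adjusted p = 7.65e-05), and the interferon gamma receptor chain IFNGR2 (-1.76 ± 0.43, adjusted p = 0.00541).

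The order of the states differed between the genes. In RNA-seq irradiated cells had the lowest mean of HLA-B, HLA-C, B2M, TAP1, TAP2, TAPBP and ERAP1. Etoposide-treated cells had the lowest mean of NLRC5 and the highest of HLA-E, TAP1 and TAP2, though for TAP1 their libraries overlapped those of thapsigargin. Neighbours in the order often overlapped: quiescent and irradiated libraries did so for HLA-C, B2M, TAP1 and TAP2, and the top 4 states of HLA-B did so in sequence. Across the 13 RNA-seq libraries, the gene whose log2 CPM was most correlated with ERAP1, of 13291, was ERAP2 (Pearson r = 0.956). For TAP1 it was SRPRB (r = 0.991), a subunit of the signal recognition particle receptor, and for NLRC5 FANCE (r = 0.982), followed by ESPL1 and FOXM1, known for roles in cell division. For HLA-E they were SCN4B (r = 0.967) and CD1D (r = 0.9602), for B2M REEP3 (r = 0.964) and for TAP2 ABHD2 (r = 0.953). These values describe libraries that share the 5 states, and genes in 1 library share its depth.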

How the data were processed

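RNA-seq (13 libraries) and Ribo-seq (14) of IMR90 cells were grouped by their titles. A label of the thapsigargin samples calls all 4 protected fragments, the RNA-seq ones included. The series' design text and the labels' protocols give different RNase I times. The authors deposited raw counts, reads assigned to each gene. Per the submitters' processing notes, bcl2fastq, STAR 2.7.10b, DESeq2 1.36.0 and build hg38 were used. The trimming and the annotation release are not given in the sources used here. Per the labels' protocols, RNA-seq used a stranded kit and Ribo-seq a small RNA kit, so counts on the reverse strand were taken for the former and on the forward strand for the latter. Lines that name no gene (unmapped, at most 40.6% of a library, multimapping, at most 66.9%, in no gene or in several) stayed out of library sizes and tests, so reads shared by near-identical HLA genes are not counted.

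The files follow 2 gene lists, of 62703 and 60664 IDs; the 60534 in both were used, and the protein coding ones were taken from RefSeq (GRCh38.p14). filterByExpr (minimum count 10) kept 13291 genes in RNA-seq and 11764 in Ribo-seq. edgeR 4.0.16 in R 4.3.3 tested 7 comparisons per assay by its quasi-likelihood F test (robust, TMM scaling, all 5 states in 1 fit). The ratio of footprints to mRNA was tested in 5 as the interaction between assay and state in 27 libraries and 11713 genes. Tests were two-sided, with Benjamini-Hochberg adjustment over all genes tested. The fits were also run on counts simulated with the spread and library sizes of these data, and the outcome is not given here. The simulation held no pairing of replicates and no mapping differences, so it cannot show their part in the calls. Alternatives were other scaling (DESeq2 size factors), the DESeq2 1.42.0 test, no filter, both strands, all gene types, only the groups compared, a replicate block and each library left out. A fit without all thapsigargin libraries was chosen after seeing the data. Replicate numbers paired quiescent with cycling Ribo-seq: deviations from the group means correlated at 0.153, 0.272 and 0.263 in same-numbered libraries and at most at 0.0583 in others. The main fit has no block, and the blocked count is given beside that result. In no other comparison of states with 3 same-numbered libraries did every correlation exceed 0.1. Between RNA-seq and Ribo-seq of a state 6 of 13 did, among them all 3 of etoposide. The 9 genes and the other lists were chosen with earlier results of these data known. All 9 are named. Of other lists, genes are named from those called at a change of at least 2-fold, at most 4 per list and comparison, with counts for the rest, and PSMB8 and PSMB9 in RNA-seq after irradiation were named outside that rule, after their values were seen. Likeness is the Pearson correlation of log2 CPM (prior count 2). Results on some genes, among them some of those most like HLA-B, HLA-C and TAPBP, are not reported here, though counts over lists include every gene tested.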

Additional observations from a re-analysis of the deposited data

Results flagged for a closer look

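Several of the 9 genes changed differently against cycling cells in the 2 senescent states, by the test of irradiated against etoposide-treated cells itself (edgeR, adjusted over all genes). The log2 difference, irradiated minus etoposide-treated, was negative for each. In mRNA it was -0.70 for HLA-B, -0.86 for HLA-C, -0.58 for HLA-E, -1.48 for TAP1, -1.60 for TAP2 and -0.69 for TAPBP. In footprints it was -1.09 for HLA-B, -0.76 for HLA-E, -0.75 for B2M, -1.70 for TAP1 and -0.92 for TAPBP. TAP1 and HLA-E had these calls in both assays in each fit that left out 1 library.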

How the results depend on the processing

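No call on the 9 genes reversed direction. Of 2526 recomputed values, 149 gained or lost a call, and 112 that were called under neither setting changed sign. Counts of the 9 genes called moved by more than 1.5 times as follows. For quiescent against cycling RNA-seq (2 genes) they were 1 with no filter, 4 with the DESeq2 test and 0 with only the groups compared, and in Ribo-seq (3 genes) 5 with the replicate block. For etoposide against cycling cells, only the groups compared gave 6 in RNA-seq and 5 in Ribo-seq (2 in each fit of all states). Of all genes, those 2 fits called 6073 of 13060 and 6021 of 11505, more than the fits of all states. For irradiated against quiescent RNA-seq (2 genes) the counts of the 9 were 4 with the DESeq2 test and 1 with only the groups compared. Shares of all genes called are not given here for that last fit. They are also not given for the RNA-seq and Ribo-seq fits with no filter, the DESeq2 test or the replicate block. Those counts cannot be set against them. The fit leaving out all thapsigargin libraries, added after seeing the data, gave 8 of 9 for irradiated against cycling cells in both assays. It gave 8 in RNA-seq and 6 in Ribo-seq for irradiated against etoposide-treated cells. Shares of all genes called in that fit are not given here, so its counts cannot be set against them. The cause of these moves was not tested. With 1 library left out, the counts ran as follows in RNA-seq: 0 to 2 for quiescent, 5 to 8 for irradiated, 2 to 2 for etoposide and 1 to 1 for thapsigargin against cycling cells, 0 to 5 for irradiated and 4 to 5 for etoposide against quiescent, and 3 to 6 for irradiated against etoposide. In Ribo-seq they were 2 to 7, 6 to 7, 1 to 2, 2 to 6, 1 to 6, 3 to 8 and 2 to 4 in the same order. For the ratio they were 2 to 5 under thapsigargin and 0 elsewhere. Shares of all genes called in the fits with 1 library left out are not given here. Where a state was left with 1 library, that library is assumed to vary like the others.

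Over same-numbered libraries of different states, 9 of 23 correlations of deviations in RNA-seq and 6 of 26 in Ribo-seq exceeded 0.1, against 13 of 44 and 5 of 52 over libraries of different numbers. Between RNA-seq and Ribo-seq of a state it was 6 of 13 against 2 of 24. With the replicate block, 8 genes in RNA-seq and 7 in Ribo-seq were called after irradiation. Beside the changes given above, the block lost B2M in quiescent RNA-seq (adjusted p = 0.0598) and TAP2 in irradiated Ribo-seq (0.0599). It gained TAP2 in RNA-seq for quiescent against cycling (0.0469) and irradiated against quiescent cells (0.0417), and in Ribo-seq HLA-E after etoposide (0.0232) and B2M for etoposide against quiescent cells (0.048). Over all genes, only the groups compared gave 853 against 2068 calls (quiescent, RNA-seq), 1507 against 3256 (thapsigargin, RNA-seq), 6021 against 4000 (etoposide, Ribo-seq), 4134 against 2551 (irradiated against etoposide, Ribo-seq) and 1053 against 2432 (thapsigargin, ratio). It gave 760 against 6 for the ratio after irradiation, 28 against 8 after etoposide and 606 against 0 between the senescent states. DESeq2 gave 32, 40 and 6 in those last 3, and 6 against 1 in quiescent cells, where the other settings, apart from leaving out a library, gave 0 to 2. For the ratio after irradiation and after etoposide the remaining ones of these gave at most 13 and 15. None of the 9 was called for the ratio outside thapsigargin under any setting. The planned comparison of levels per length was not run, since transcript lengths were not used here. Depth limits TAP2 in Ribo-seq, at 0 to 24 counts per library.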

Other observations

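Some molecules are built like class I heavy chains but have other tasks. Of 9 such genes tested in RNA-seq, 3 rose and 1 fell in etoposide-treated against cycling cells, beside 34.5% of all genes called. MICA, a stress ligand of the natural killer receptor NKG2D, rose in mRNA (1.07 ± 0.16, adjusted p = 0.000158 by edgeR) and in footprints (1.01 ± 0.31, adjusted p = 0.0207). CD1D, which presents lipids, had 122 counts in the 3 etoposide RNA-seq libraries, 7 in the 3 irradiated, 1 in the 2 cycling and 0 in the 3 quiescent ones. After irradiation 0 of the 9 rose and 4 fell, beside 34.9% of all genes called, led by the NKG2D ligands ULBP3 (-2.06 ± 0.22, adjusted p = 1.08e-05) and ULBP2 (-1.03 ± 0.23, adjusted p = 0.00382). In quiescent cells 5 fell and 0 rose, beside 15.6% of all genes called, led by HFE, which takes part in iron sensing (-1.42 ± 0.28, adjusted p = 0.00397), and ULBP3 (-1.30 ± 0.21, adjusted p = 0.00168). Of 8 tested in footprints under thapsigargin, 3 fell, beside 44.4% of all genes called, among them the Fc receptor FCGRT (-1.48 ± 0.37, adjusted p = 0.00546), and MICB had 6 counts in 2 libraries. Irradiated cells were lower than etoposide-treated cells in 7 of the 9 (22.6% of all genes were called), MICA by -1.45 ± 0.14 (adjusted p = 5.41e-05) and ULBP2 by -1.63 ± 0.21 (adjusted p = 0.000238).

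Of 9 genes of class II presentation, which is mainly a task of immune cells, 5 passed the filter in RNA-seq and 2 rose after etoposide, beside 34.5% of all genes called. CTSS, a lysosomal protease, changed by 3.20 ± 0.47 in mRNA (adjusted p = 0.000146 by edgeR) and by 3.12 ± 0.35 in footprints (adjusted p = 1.3e-05). HLA-DMA, a chain of the class II peptide editor, changed by 1.33 ± 0.24 in mRNA (adjusted p = 0.000797). The 7 immune markers summed to 1.36 to 1.78 CPM in the etoposide libraries and to at most 0.68 CPM elsewhere, and their part in this was not tested.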
